A study of Mus musculus with 4 samples.

Results

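The genes described here are 43 genes of DNA replication and S phase, chosen by name for their role in copying the genome, and read in infarcted mouse hearts with and without endothelial S1pr1. The array held 50 probes for them, and 7 members had several. Of the 20659 genes named on the array, 15955 were tested, among 22931 features in all. Testing required a signal well above background on 2 or more arrays, and 41 of the 43 members passed. Cdc7 and Brca1 did not.

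The study compared male wild-type mice (WT) with VE-Cad-Cre-S1pr1 fl/fl mice (KO), which carry floxed S1pr1 and a Cre recombinase under the VE-cadherin promoter, active in endothelial cells. In both genotypes the left anterior descending coronary artery had been ligated 5 days earlier, so no uninfarcted heart enters the comparison. S1pr1 encodes a receptor for sphingosine 1-phosphate. Each genotype had 2 arrays of heart RNA, numbered 1 and 3 for WT and 3 and 4 for KO, and these numbers are used as replicate numbers here. Neither the Cre or floxed-allele status of the WT mice nor the number of hearts behind the arrays is in the labels. The spread that enters the p-values is therefore that between arrays, and part or all of it may be technical.

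DNA replication is prepared in G1, when the origin recognition complex, Cdc6 and Cdt1 load the MCM helicase onto origins, and is started in S phase, when kinases and the Cdc45 and GINS proteins turn the helicase on. DNA polymerases, the sliding clamp PCNA and its loader then copy the strands, while ribonucleotide reductase and other enzymes supply nucleotides and histone chaperones rebuild chromatin. E2F transcription factors drive many of these genes at the G1 to S transition. In the infarcted heart most dividing cells are immune cells, fibroblasts and vascular cells, while adult cardiomyocytes seldom divide.

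A level is the log2 signal of a probe after the 75th percentile of its array was subtracted. A difference is the mean KO level minus the mean WT level. Values on single arrays follow the order WT replicate 1, WT replicate 3, KO replicate 3, KO replicate 4. The share of probes well above background ran from 54.3% on WT replicate 1 to 73.4% on KO replicate 3. Slide positions were 4, 3, 2 and 1 in the order of arrays above, so the KO arrays held positions 1 and 2. Slide position therefore cannot be told apart from genotype, nor from differences between the arrays of a genotype. S1pr1 itself was 0.43, 0.95, -2.69 and -2.30, lower on both KO arrays, with a difference of -3.19 (SE 0.38, limma adjusted p = 0.740). All 14 cardiomyocyte markers were well above background on all 4 arrays.

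Promoter sequences were searched for words that the choice of members did not use. RefSeq promoters of build GRCm38.p6, from 250 bases before to 50 bases after each start, were at hand for 36 of the 43 members. An E2F-type match was searched as any of the words TTTCCCGC, TTTGGCGC, TTTCGCGC and TTTGCCGC on either strand. Of the 36 members, 12 held a match (33.3%), against 704 of all 27025 genes of the table (2.6%). Among other replication and S-phase genes it was 21 of 47 (44.7%), and among mitosis genes 1 of 27 (3.7%). The stretches below are the matches that lie before the start, shown because the E2F-type word is the feature that members hold most often relative to all promoters among the motifs searched. Each is written 5′ to 3′ on the strand of the gene, with the matched word in capitals. Words on the opposite strand read as their reverse complement, and overlapping matches are joined.
Orc1, licensing, chr4:108579407-108579453, plus strand: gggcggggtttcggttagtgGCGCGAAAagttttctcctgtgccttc
Cdc6, licensing, chr11:98907993-98908040, plus strand: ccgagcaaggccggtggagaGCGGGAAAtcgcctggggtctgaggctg
Mcm5, helicase, chr8:75109336-75109387, plus strand: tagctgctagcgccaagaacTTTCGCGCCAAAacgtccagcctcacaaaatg
Mcm6, helicase, chr1:128359725-128359835, minus strand: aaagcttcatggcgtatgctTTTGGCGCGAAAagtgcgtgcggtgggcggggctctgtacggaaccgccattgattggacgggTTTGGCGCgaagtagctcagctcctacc
Mcm7, helicase, chr5:138172021-138172068, minus strand: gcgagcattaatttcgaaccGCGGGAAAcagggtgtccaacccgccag
Pola1, polymerase, chrX:93632266-93632313, minus strand: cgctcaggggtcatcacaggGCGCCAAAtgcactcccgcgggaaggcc
Rfc3, clamp loader, chr5:151651209-151651238, minus strand: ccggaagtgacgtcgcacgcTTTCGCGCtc
Uhrf1, chromatin, chr17:56304108-56304155, plus strand: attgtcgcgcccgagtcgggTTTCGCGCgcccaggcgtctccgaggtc

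Before the start Mcm6 held 3 matches and Mcm5 held 2, with a pair overlapping on opposite strands in each gene. Mcm7 and Rfc3 also held a match after the start, not shown above. In Mcm3, Cdt1, Lig1 and Pold1 the matches lay only after the start. The box CCAAT was found in 20 of the 36 members (55.6%), against 41.1% of all genes and 77.8% of mitosis genes. The word TTTGAA, the core of the cell cycle homology region known from mitotic promoters, was found in 6 members (16.7%), against 20.2% of all genes and 77.8% of mitosis genes. A match describes letters only and is not evidence that a factor binds there.

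**Figure D1:**
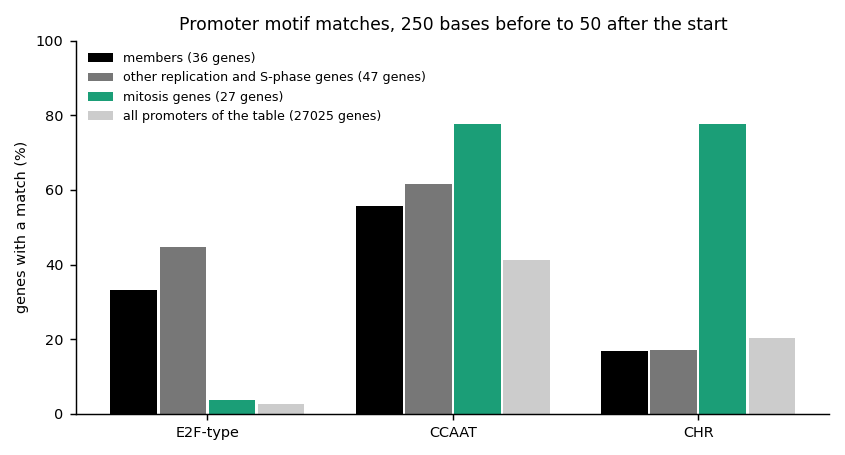
Share of genes (%) whose promoter window holds an E2F-type, CCAAT or CHR (TTTGAA) match, for the members, other replication genes, mitosis genes and all genes of the table. The E2F-type bar is 33.3% for members and 2.6% for all genes, while the CHR bar is 77.8% for mitosis genes and 16.7% for members.

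The mean level was lower in KO for 39 of the 41 tested members (95.1%), against 45.2% of all features tested, and the median member difference was -1.39, against 0.07 over all features. Differences of at least 2-fold lower were found for 27 members (65.9%, against 7.51% of features) and of at least 4-fold for 5. Leaving out KO replicate 4 gave 0 members at 2-fold and 0 at 4-fold, and leaving out WT replicate 1 gave 14 and 1. Leaving out WT replicate 3 gave 33 and 16, and leaving out KO replicate 3 gave 33 and 21. The spread of the arrays' member medians within a genotype was a pooled SD of 0.98. No member passed the test: limma adjusted p-values ran from 0.740 to 0.994, and 0 of the 22931 features were called (0.0%). At an unadjusted p under 0.05 there were 633 features, 310 of them lower in KO (1.35%), and 1 member, Gins1. With each array left out in turn, the Gins1 difference ran from -1.24 to -0.72. With 2 arrays against 2, an exact permutation test of a single gene cannot go below p = 0.333.

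The members did not split cleanly by genotype. On WT replicate 1 their mean level was 0.79, on WT replicate 3 it was -0.081, on KO replicate 3 it was -0.10, and on KO replicate 4 it was -1.63. The slide positions of these arrays fall in the same order, 4, 3, 2 and 1, and an effect of position was not tested. WT replicate 1 was the highest array and KO replicate 4 the lowest for 35 members (85.4%, against 23.5% of all features). The arrays numbered 3 lay less than 0.5 apart for 40 members (97.6%, against 81.4%), the exception being Gins1. Between these arrays KO was lower for 24 members and higher for 17, with a median of -0.037 and a range of -0.58 to 0.36. Both KO values lay below both WT values for 21 members (51.2%, against 16.1% of features), and above for 1, Cdc45 (2.44%, against 18.3%). The count below was 21 without WT replicate 1, 38 without WT replicate 3, 36 without KO replicate 3 and 23 without KO replicate 4. With a lone array in 1 genotype overlap is less likely, and no share over all features was counted for these settings. The step from WT replicate 1 to the arrays numbered 3 had a median of 0.95, and the step from those to KO replicate 4 a median of 1.51, the larger of the steps in 31 members. Leaving out KO replicate 4 gave a median difference of -0.47, and leaving out WT replicate 1 gave -0.79. Leaving out WT replicate 3 gave -1.90, and leaving out KO replicate 3 gave -2.13. In RNA of heart tissue, fewer cycling cells and less of these transcripts per cell cannot be told apart. Cardiomyocyte markers also differed between arrays, with mean levels of 2.23, 6.35, 6.14 and 6.95. Whether a differing share of cardiomyocyte RNA bears on the members was not tested.

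**Figure D2:**
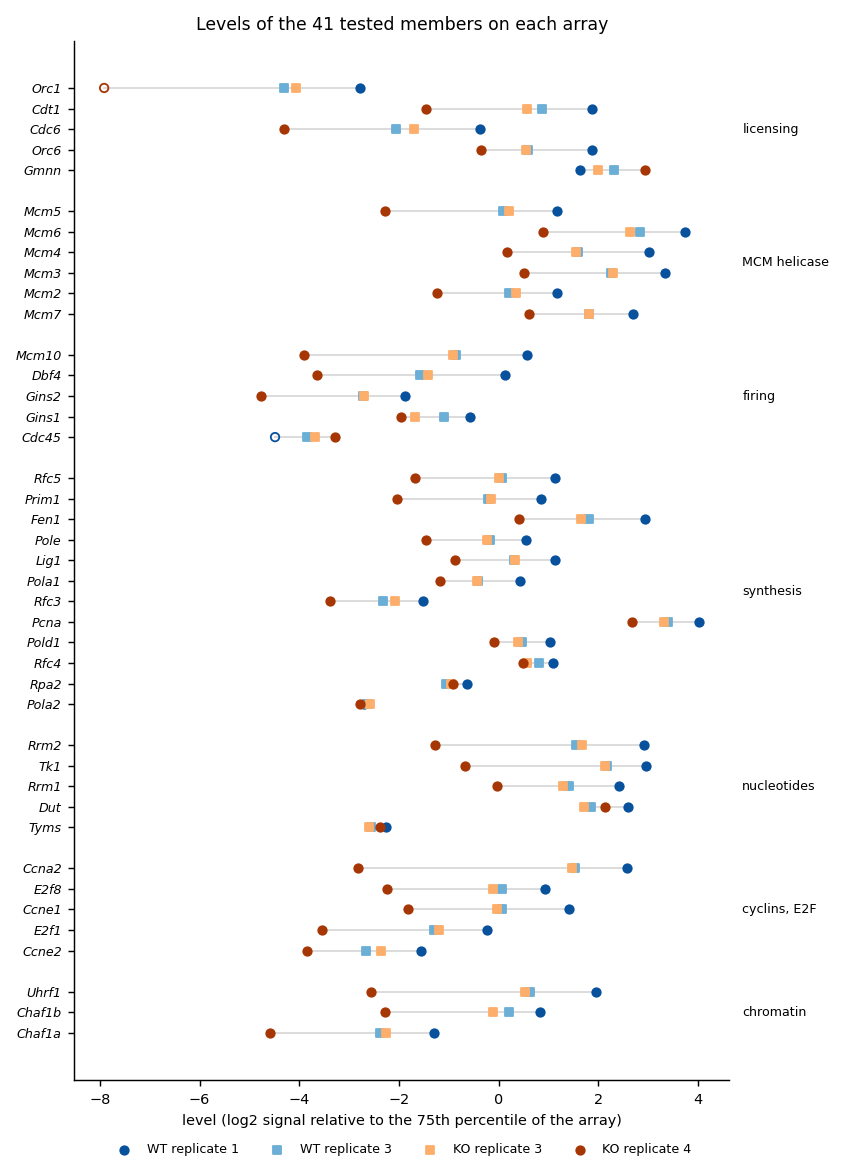
Level of each of the 41 tested members on each array (log2 signal relative to the 75th percentile), grouped by role; open circles are not well above background. The squares of the arrays numbered 3 lie less than 0.5 apart for 40 members, with WT replicate 1 highest and KO replicate 4 lowest in 35.

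Licensing genes had 4 of 5 members lower, with a median difference of -1.78. Cdt1, the loader that brings the MCM helicase to origins, was 1.86, 0.87, 0.57 and -1.45, a difference of -1.81 (SE 0.82). The KO arrays lay below the WT arrays, KO replicate 3 only narrowly. Orc6, a subunit of the origin recognition complex, was 1.87, 0.58, 0.55 and -0.37, a difference of -1.13 (SE 0.61). Here WT replicate 3 and KO replicate 3 were nearly level. Cdc6, the ATPase that works beside Cdt1, was -0.39, -2.06, -1.70 and -4.31, a difference of -1.78 (SE 1.09), and its genotypes overlapped. Orc1, the large ATPase subunit of the origin complex, was -2.78, -4.30, -4.07 and -7.91. It was not well above background on KO replicate 4, so 1 of the KO arrays measured it, and its difference of -2.45 (SE 1.43) rests on that dim value. Without KO replicate 4 it was -0.53. Geminin (Gmnn), the protein that blocks Cdt1 after licensing, went the other way, at 1.62, 2.30, 1.99 and 2.94. Its difference was 0.51 (SE 0.50), with overlapping genotypes and the lowest value on WT replicate 1.

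The 6 subunits of the MCM helicase, the ring that unwinds DNA at the fork, were the most uniform role group. Their differences ran from -1.66 for Mcm5 to -1.04 for Mcm7, and all 6 were at least 2-fold lower in KO with WT replicate 1 highest and KO replicate 4 lowest. Mcm6 was 3.73, 2.83, 2.63 and 0.88, a difference of -1.52 (SE 0.73). Mcm4 was 3.01, 1.59, 1.55 and 0.17, a difference of -1.44 (SE 0.74). Mcm3 was 3.34, 2.25, 2.29 and 0.52, a difference of -1.39 (SE 0.77). In Mcm6 and Mcm4 the genotypes did not overlap, and in Mcm3 KO replicate 3 lay just above WT replicate 3. The same small overlap held for Mcm2 (difference -1.13) and Mcm5, and Mcm7 did not overlap. Between the arrays numbered 3 the group ran from -0.20 to 0.14, with a median of 0.02. Its summed linear signal was 42.4 times the 75th percentile on WT replicate 1, 20.6 on WT replicate 3, 19.9 on KO replicate 3 and 6.55 on KO replicate 4.

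Among genes that activate the helicase, 4 of 5 tested members were lower, with a median difference of -1.44. Mcm10, which helps to open the loaded helicase, was 0.56, -0.87, -0.91 and -3.91, a difference of -2.26 (SE 1.16). The arrays numbered 3 were nearly level, and the genotypes did not overlap. Gins1, a subunit of the GINS ring that rides with the helicase, was -0.58, -1.10, -1.68 and -1.97. Both KO arrays lay below both WT arrays, also on the arrays numbered 3, and its difference of -0.98 (SE 0.36, unadjusted p = 0.0493, limma adjusted p = 0.740) was the one member difference whose 95% interval, from -1.96 to -0.0047, stayed below 0. Dbf4, the activating subunit of the Cdc7 kinase, was 0.13, -1.59, -1.41 and -3.65, a difference of -1.80 (SE 1.002) with overlapping genotypes. Gins2 had a difference of -1.44 (SE 0.81). Cdc45, the helicase cofactor, was -4.49, -3.85, -3.69 and -3.29, a difference of 0.68 (SE 0.39). Both KO arrays were higher, but WT replicate 1, where the lowest level well above background was -4.39, did not measure it. The Cdc7 kinase was well above background only on KO replicate 3, by both of its probes, at -6.75 and -6.70.

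The 12 genes of DNA synthesis were all lower in KO, by a median of -0.82, and 4 of them by at least 2-fold. Fen1, the nuclease that trims Okazaki fragments, was 2.92, 1.82, 1.64 and 0.42, a difference of -1.34 (SE 0.63). Rfc5, a clamp loader subunit, was 1.13, 0.06, 0.01 and -1.67, a difference of -1.43 (SE 0.74). The genotypes did not overlap in either gene, though the arrays numbered 3 lay close together. Pole, the catalytic subunit of the leading-strand polymerase, was 0.54, -0.17, -0.23 and -1.46, a difference of -1.03 (SE 0.57). A second, dimmer Pole probe ran the other way, at -4.90, -3.46, -2.60 and -1.28, and was not well above background on WT replicate 1. The probes disagree, so the direction of Pole depends on the probe. Prim1, the catalytic subunit of primase, differed by -1.42 (SE 0.79), and Lig1, the ligase that joins Okazaki fragments, by -0.99 (SE 0.58).

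Other synthesis genes differed less. The difference was -0.82 for Pola1, the catalytic subunit of polymerase alpha, and -0.81 for Rfc3 of the clamp loader. Pcna, the sliding clamp and a common marker of cycling cells, differed by -0.71 (SE 0.43). Pold1, the catalytic subunit of polymerase delta, differed by -0.60 and Rfc4 by -0.43. Rpa2, a subunit of the single-strand binding protein, differed by -0.09 (SE 0.33). Pola2, the second subunit of polymerase alpha, was -2.69, -2.64, -2.57 and -2.78, the smallest difference of any member at -0.0068 (SE 0.31). Its 95% interval ran from -0.84 to 0.83, so a difference of either sign up to that size was not excluded.

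Nucleotide supply was divided. Rrm1, the large subunit of ribonucleotide reductase, was 2.42, 1.40, 1.28 and -0.03, a difference of -1.29 (SE 0.64). Rrm2, its S-phase subunit, was 2.91, 1.55, 1.66 and -1.28, a difference of -2.04 (SE 1.14). Tk1, the thymidine kinase of S phase, was 2.95, 2.17, 2.13 and -0.68, a difference of -1.84 (SE 1.03). In these genes WT replicate 1 was highest and KO replicate 4 lowest, and in Rrm2 the arrays numbered 3 crossed. Thymidylate synthase (Tyms), which makes dTMP, and Dut, which removes dUTP, did not share that order. Tyms differed by -0.07 (SE 0.33) and Dut by -0.30 (SE 0.42), both with overlapping genotypes.

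Cyclins and E2F factors held the largest difference of all members. Cyclin A2 (Ccna2), the partner of Cdk2 in S phase, was 2.56, 1.54, 1.48 and -2.81, a difference of -2.72 (SE 1.52). KO replicate 4 carried most of it, and without that array the difference was -0.57. Cyclin E1 (Ccne1), which drives entry into S phase, was 1.41, 0.07, -0.03 and -1.82, a difference of -1.67 (SE 0.82). E2f8, an E2F repressor, was 0.93, 0.07, -0.11 and -2.24, a difference of -1.67 (SE 0.84). E2f1, an activating E2F, was -0.23, -1.29, -1.20 and -3.54, a difference of -1.61 (SE 0.92). E2f1 overlapped between genotypes, as did cyclin E2 (Ccne2), which differed by -0.99, while Ccne1 and E2f8 did not.

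Of the chromatin and repair genes, 3 of 4 were tested, and all 3 were lower by at least 2-fold. Uhrf1, which guides Dnmt1 to newly copied DNA, was 1.96, 0.63, 0.53 and -2.56, a difference of -2.31 (SE 1.18). Chaf1b, a subunit of the histone chaperone CAF-1, was 0.83, 0.21, -0.11 and -2.28, a difference of -1.72 (SE 0.82). Neither overlapped between genotypes. Its partner Chaf1a was -1.30, -2.37, -2.26 and -4.60, a difference of -1.59 (SE 0.92) with overlapping genotypes. Brca1, a DNA repair gene, was well above background only on KO replicate 3, at -5.86, so no difference is given.

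**Figure D3:**
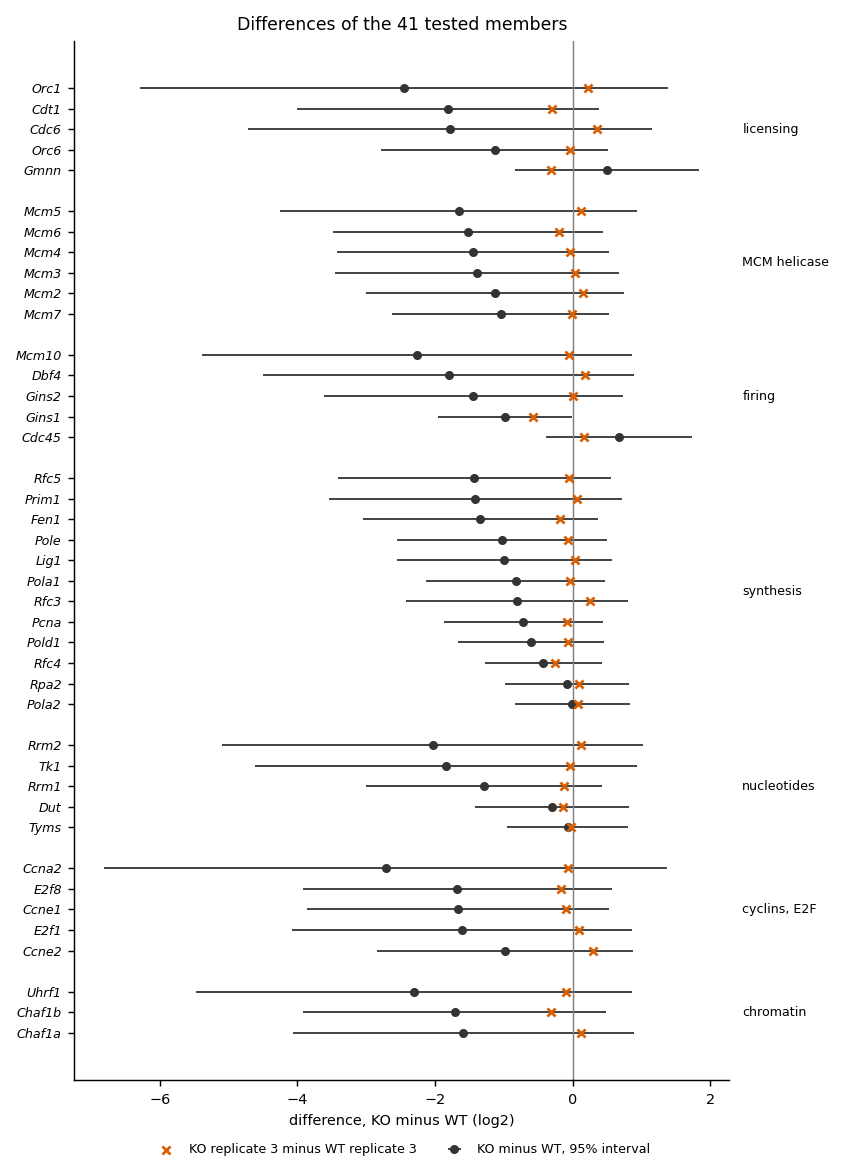
KO minus WT difference of each tested member (log2; points, with 95% intervals of limma as lines), and KO replicate 3 minus WT replicate 3 (crosses). The intervals of 40 members reach above 0, and the crosses lie between -0.58 and 0.36.

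The differences of members with and without an E2F-type promoter match are given side by side, with no test. The 12 tested members with a match had a median of -1.46, from -2.45 to -0.60, and the 22 tested members without one a median of -1.38, from -2.26 to 0.68. Of the members, 5 differed by less than 0.5 in size, namely Pola2, Rpa2, Tyms, Dut and Rfc4. All 5 had a promoter in the table, and 0 of the 5 held a match, which says only that these words are not in those windows. These 5 were singled out after their values were seen.

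Other subunits of the members' complexes were set beside them, a comparison chosen after the values were seen. In the origin recognition complex Orc1 (-2.45) and Orc6 (-1.13) had the low values, while Orc2 was at -0.40, Orc4 at -0.01, Orc3 at 0.18 and Orc5 at 0.35. Mcm8 (-0.36) and Mcm9 (-0.21), relatives of the helicase that act in repair, were nearer 0 than each of the 6 helicase members. Mcm9 was not well above background on WT replicate 1, at -4.70, so its difference rests in part on a dim value. In GINS the differences were -1.44 for Gins2, -0.98 for Gins1, -0.39 for Gins4 and -0.19 for Gins3. Polymerase alpha and primase ran from -1.42 for Prim1 and -1.39 for Prim2 to -0.01 for Pola2. Polymerase epsilon ran from -1.44 for Pole2 to -0.65 for Pole4, and polymerase delta from -0.60 for Pold1 to -0.15 for Pold2. In the clamp loader Rfc5 was at -1.43 and the large subunit Rfc1 at -0.07. The subunits of RPA lay between -0.25 and -0.09. Without KO replicate 4 the gaps were smaller or the order changed, except in RPA. The RPA subunits then ran more widely, from -0.37 for Rpa1 to -0.11 for Rpa2. Orc1 was then at -0.53 and Orc6 at -0.68, Gins2 at -0.42 and Gins1 at -0.84, and Rfc5 at -0.59. In polymerase epsilon Pole2 was then at -0.31, nearer 0 than Pole3 at -0.53 and Pole4 at -0.52. The differences between subunits were not tested.

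**Figure D4:**
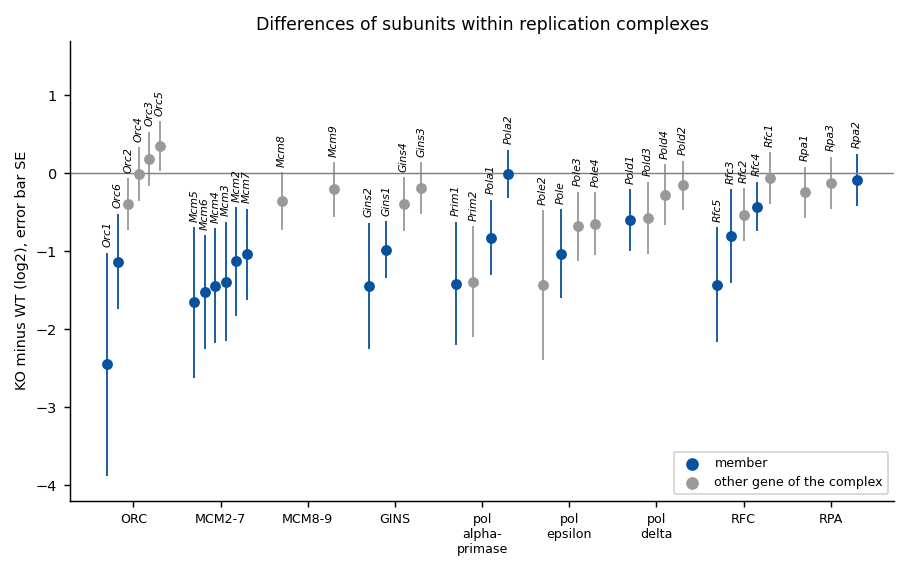
KO minus WT difference (log2, error bars SE) of the subunits of 9 replication complexes or gene pairs, members in blue and other genes in grey. Orc1 lies at -2.45 while Orc5 lies at 0.35, and all 6 subunits of the MCM helicase lie at or below -1.04.

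Of 60 other replication and S-phase genes, all tested, 56 were lower in KO, against 45.2% of all features. By at least 2-fold 20 were lower, against 7.51% of all features, and the median was -0.64. No gene passed the limma test in either direction. WT replicate 1 was highest and KO replicate 4 lowest for 44 of the 60, against 23.5% of all features. Those of smallest unadjusted p were Dck, the deoxycytidine kinase, at -1.69 (SE 0.56), Tipin, a fork protection factor, at -0.82 (SE 0.37), Blm, a helicase of repair, at -1.33 (SE 0.65), and Asf1b, a histone chaperone, at -1.73 (SE 0.87). All 4 did not overlap between genotypes, which a choice by small p favours. Over the 60 genes, 20 did not overlap with KO lower and 2 with KO higher, while 38 overlapped. The shares over all features were 16.1% lower and 18.3% higher.

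Genes that act upstream of S phase were read from lists of brakes and of G1 regulators, whose difference from the members was not tested. Of 16 cell cycle brakes, 8 were lower and 8 higher, with a median of 0.02, and none passed the limma test. Rbl2, a pocket protein of quiescence, differed by 0.75 (SE 0.35), E2f6, a repressor, by 1.01 (SE 0.57), and Cdkn1c, a kinase inhibitor, by 0.84 (SE 0.53), while the kinase inhibitor Cdkn2b differed by -1.46 (SE 0.70). Of 6 G1 regulators (cyclins, kinases and Myc), 4 were lower and 2 higher, with a median of -0.25 and none called by limma. Ccnd1 differed by 0.51 (SE 0.36), Ccnd2 by 0.46 (SE 0.31), Cdk4 by -0.67 (SE 0.48) and Cdk6 by -0.32 (SE 0.34). Cdk6 was not well above background on every array.

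Mitosis genes shared the order of arrays with a wider range. Of 30 tested, 29 were lower in KO, 27 by at least 2-fold (7.51% of all features), with a median of -2.47 and none called by limma. Their mean levels were 0.81, -0.46, -0.34 and -3.77, so that KO replicate 4 lay farther below the other arrays than for the members (0.79, -0.081, -0.10 and -1.63). These means include dim values, as Kif2c, Ttk and Nuf2 were not well above background on KO replicate 4, nor Cenpf on WT replicate 1. The genotypes did not overlap, with KO lower, for 10 of the 30, where the share over all features was 16.1%. The smallest unadjusted p-values belonged to Kif20a, a kinesin of cell division, at -2.73 (SE 1.31), and Plk1, a mitotic kinase, at -3.02 (SE 1.48). Whether the lists differ from each other was not tested.

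Markers of 10 cell types were read on the same arrays, and some lists had an order of arrays like that of the members while others did not. Pan-macrophage markers, 15 of 15 tested with a lower mean in KO, had mean levels of 3.60, 2.71, 2.51 and 1.30. WT replicate 1 was highest and KO replicate 4 lowest in 12 of them (23.5% of all features). The arrays numbered 3 lay less than 0.5 apart for 8 of the 15, against 40 of 41 members. KO minus WT on those arrays ran from -2.05 for Fcgr1 to 1.71 for Cd14. These markers were thus not alike, with differences from -3.55 for Lgals3 to -0.03 for Itgam. Their summed linear signal was 197 to 327 times the 75th percentile in WT and 78.3 to 156 in KO, and none was at background on any array. Activated fibroblast markers, 7 of 7 with a lower mean, had levels of 4.01, 2.92, 2.71 and -0.91, with sums of 200 to 287 in WT and 37.2 to 202 in KO, and 1 of them, Tnc, was not well above background on KO replicate 4. Cardiomyocyte markers, 14 of 14 with a higher mean, had levels of 2.23, 6.35, 6.14 and 6.95, with sums of 175 to 1523 in WT and 1332 to 2232 in KO. They were lowest on WT replicate 1, where the members were highest. Endothelial markers, 8 of 8 with a higher mean, had levels of 0.90, 1.24, 1.61 and 1.49, with sums of 33.9 to 39.9 in WT and 44.3 to 52.5 in KO. Fibroblast markers were 4 lower and 4 higher of 8, with mean levels of 3.72, 3.66, 4.08 and 3.14. Erythroid markers, with 2 of 4 tested and both lower, had levels of 3.43, 1.60, 1.17 and 1.17, and neutrophil markers, 6 of 8 lower, had 0.51, -1.23, -1.20 and -0.81. By mean level both of these lists were highest on WT replicate 1, as the members were, but KO replicate 4 did not stand below the other KO array. By summed linear signal the neutrophil markers were at 66.4 on WT replicate 1 and 66.6 on KO replicate 4. Only 1 of the 8 had WT replicate 1 highest and KO replicate 4 lowest. B cell markers, 3 of 4 tested lower, had levels of -2.06, -4.15, -1.77 and -5.36. T and NK cell markers, 1 of 6 tested lower, had -2.75, -3.19, -2.49 and -2.96, and smooth muscle and pericyte markers, 3 of 6 lower, had 0.91, 1.16, 1.32 and 0.95. With the pan-macrophage marker mean as a covariate the median member difference was 0.19 and 5 members were lower in KO. With the cardiomyocyte marker mean it was -0.63 and 36 were lower. Each of these fits had 4 arrays for 3 coefficients, and which cells carried the members' RNA was not tested.

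**Figure D5:**
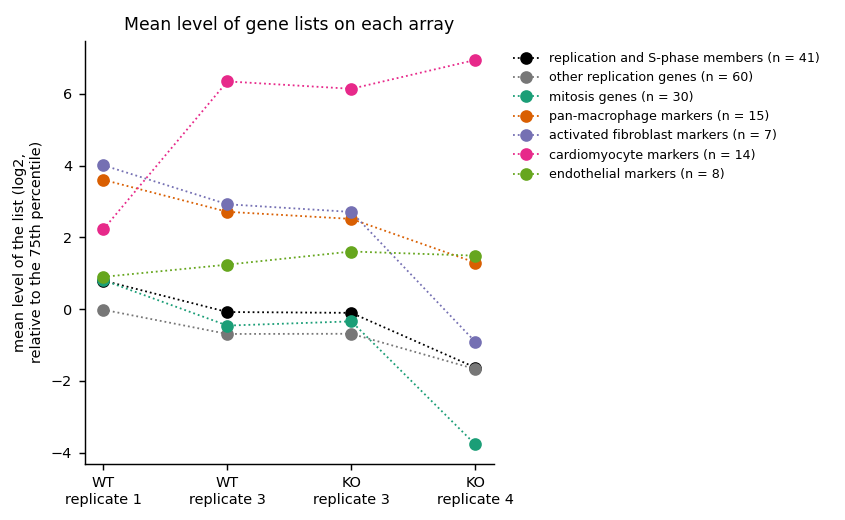
Mean level of gene lists on each array (log2 relative to the 75th percentile; n is the number of tested genes, and dotted lines only join points of the same list). The members run from 0.79 on WT replicate 1 to -1.63 on KO replicate 4, the pan-macrophage markers from 3.60 to 1.30, and the cardiomyocyte markers from 2.23 to 6.95.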

How the data were processed

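RNA of infarcted hearts was read on 4 1-colour Agilent arrays, 2 per genotype. The replicate number is that in the labels (WT1, WT3, KO3, KO4), although each label also ends in rep1. The scanner intensity is the processed signal, background-subtracted by the authors' scanner software per the file headers (version 11.0.1.1 of Feature Extraction; version 9.1 stands in the submitters' processing notes). The flags for background, saturation and outliers are other values of the deposited scanner output. The deposited value table holds log2 values with a median of 6.106 on every array, and its normalization step is not given in the sources used here. It served as an alternative.

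Control spots and flagged outliers were dropped, and repeated spots of a probe averaged. Signals were scaled to each array's 75th percentile on the log2 scale. Probes well above background on at least 2 arrays were kept, whatever the genotype, with the probe of highest mean for each gene. The genotypes were compared in R 4.3.3 with limma 3.58.1 (lmFit, then eBayes). Two-sided p-values were adjusted over all features by the method of Benjamini and Hochberg, and 0.05 was the threshold. The fit was tested on simulated data with the fitted spread, in which 200 features were changed. It called 0 of them at a log2 change of 1, 0 at 2 and 177 at 4, the last with 10 false calls. The median member difference of -1.39 lies in size between 1 and 2, so the absence of calls does not show that members were unchanged. Genes were named, and promoters taken, from RefSeq tables of GRCm38.p6. The arrays' grid names another build, so no gene coordinates come from it.

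The members and gene lists were chosen with earlier results of these data known. Array values are given for up to 3 members of smallest unadjusted p per role among those well above background throughout, the largest and smallest differences and members missed on some array, and, beyond this rule, for other members. Of the other pathway lists the 4 genes of smallest p were named, and of the mitosis genes 2. The number of arrays limits the precision. Alternatives were the scaling, background, filter, probe rule, eBayes options and threshold, each array left out, the arrays numbered 3 alone, and marker means as covariates.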

Additional observations from a re-analysis of the deposited data

How the results depend on the processing

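No paired analysis was run, since the labels name no pairs and the genotypes share only 1 replicate number, 3. Setting the arrays numbered 3 side by side is a description and not a matched comparison. The count of called features and of called members was 0 under every alternative fitted with limma. Each member kept its direction under median, quantile and normexp scaling, the deposited values, a common floor of -4.389, no filter, a stricter filter (39 members left), eBayes with trend and robust options and the threshold of 0.1. Median scaling moved the median of all features from 0.072 to -0.04. With the mean of a gene's probes Pole was at 0.60. Leaving out each array in turn gave a median member difference of -2.13 to -0.47, 36 to 38 members lower in KO and 21 to 38 with genotypes that did not overlap (38 without WT replicate 3, 36 without KO replicate 3, 21 in the full comparison). It turned the sign in some fits of Pola2 (-0.11 to 0.095), Rpa2 (-0.29 to 0.12), Tyms (-0.23 to 0.078) and Dut (-0.67 to 0.067). With the cardiomyocyte marker mean as a covariate, Rpa2 was at 0.13, Tyms at 0.065 and Dut at 0.044. Leaving out an array leaves 1 genotype with a lone array, assumed to vary like the others. Overlap is then less likely, so the counts without overlap cannot be set against that of the full comparison. At least 2-fold lower were 14 members without WT replicate 1, 33 without WT replicate 3 or KO replicate 3, and 0 without KO replicate 4. The cause of these shifts was not tested.

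On the arrays numbered 3 alone, with no test, the median was -0.037 and 24 members were lower. Those that turned were Orc1 at 0.23, Cdc6 at 0.36, Gmnn at -0.31, Mcm2 at 0.14, Mcm3 at 0.040, Mcm5 at 0.13, Gins2 at 0.0017, Dbf4 at 0.18, Pola2 at 0.071, Prim1 at 0.059, Rfc3 at 0.25, Rpa2 at 0.098, Lig1 at 0.028, Rrm2 at 0.12, Ccne2 at 0.30, E2f1 at 0.093 and Chaf1a at 0.12. The cause was not tested.

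With the pan-macrophage marker mean as a covariate the median was 0.19, 5 members were lower and 36 turned. These were Orc1 at 0.87, Orc6 at 0.11, Cdc6 at 0.79, Cdt1 at 0.027, Gmnn at -0.47, Mcm2 at 0.40, Mcm3 at 0.33, Mcm4 at 0.18, Mcm5 at 0.54, Mcm6 at 0.085, Mcm7 at 0.19, Mcm10 at 0.45, Gins2 at 0.34, Dbf4 at 0.54, Pola1 at 0.082, Pola2 at 0.11, Prim1 at 0.37, Pole at 0.14, Pold1 at 0.0079, Pcna at 0.022, Rfc3 at 0.46, Rfc5 at 0.22, Rpa2 at 0.085, Fen1 at 0.019, Lig1 at 0.22, Rrm1 at 0.096, Rrm2 at 0.60, Tk1 at 0.43, Ccne1 at 0.19, Ccne2 at 0.54, Ccna2 at 0.66, E2f1 at 0.48, E2f8 at 0.18, Chaf1a at 0.50, Chaf1b at 0.044 and Uhrf1 at 0.42. Signal over background limits dim members, most of all Orc1, Cdc45, Cdc7 and Brca1.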
